A study of Sus scrofa and Rattus norvegicus with 8 samples.

Results

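The mRNA levels of 10 genes of branched-chain amino acid breakdown and acyl-CoA proofreading were described in the subcutaneous white fat of pigs. The members were BCAT2, BCKDHA, BCKDHB, DBT, IVD, MCCC1, HIBCH, PCCA, PCCB and ECHDC1, taken by gene symbol from a table of 25880 Ensembl gene IDs, of which 14844 were named nuclear genes. Each symbol matched 1 ID, and no member had the same 6 values as another ID.

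The study profiled adipose tissue of several mammals by RNA-seq after depletion of ribosomal RNA. The libraries used here came from the upper layer of backfat of 6 adult female pigs of the Bama breed, 2 years old, which had received no treatment named in the labels and no feed during the night before slaughter. A further 2 libraries from pooled inguinal fat of adult female SD rats were not used, because their IDs could not be paired with gene symbols. There was therefore 1 group of animals and no comparison between groups, and p-values measure only the spread between these 6 libraries.

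Leucine, isoleucine and valine are the branched-chain amino acids. BCAT2 moves their amino group to a keto acid acceptor in mitochondria, and the branched-chain keto acid dehydrogenase complex then removes a carboxyl group in the step that commits the carbon skeleton to oxidation. Leucine ends in acetyl-CoA and acetoacetate, while valine and isoleucine also give propionyl-CoA, which enters the TCA cycle after carboxylation. Fat cells are known to burn these amino acids and to build fatty acids from the acetyl-CoA and propionyl-CoA released.

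TPM, an abundance scale with the same sum in each library, are corrected for transcript length, so levels of different genes can be set side by side, but they keep no read counts and the depth is unknown. In replicates 1, 2, 3 and 6 the named nuclear genes held 24.1% to 26.3% of all TPM, against 3.34% in replicate 4 and 4.73% in replicate 5. Each library was therefore also rescaled so that its named nuclear genes summed to 1000000, and these values are called rescaled TPM. In bulk tissue, fewer cells of a type and less RNA per cell cannot be told apart. The labelled tissue was checked on 9 measured adipocyte markers, whose summed rescaled TPM was 20763 to 37263 over the 6 libraries, with FABP4 at a mean of 18679 and ADIPOQ at 2992. Markers of skeletal muscle (4 measured), keratinocytes (5) and mammary epithelium (7) summed to at most 14.1, 5.59 and 32.2 rescaled TPM in any library, and the milk gene LALBA was listed at 0 in every one.

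The short coding stretches below carry modified residues of 4 members, which bind a cofactor in PCCA, MCCC1 and DBT and control activity in BCKDHA. The sequences were read from the Sscrofa11.1 genome along the RefSeq coding sequence, in 27 bases, with the codon of the modified residue in capitals. In PCCA and MCCC1 it is the lysine to which the cofactor biotin is attached, at residue 696 of 730 and at residue 675 of 719. In DBT it is the lysine that carries the swinging lipoyl arm, at residue 122 of 499. In BCKDHA it is the serine on which the kinase BCKDK shuts the complex down, at residue 339 of 447.
PCCA, biotin lysine, chr11:69284427-69284453, plus strand, coding exon 23 of 24: attgaagccatgAAGatgcagaacagt
MCCC1, biotin lysine, codon at chr13:120984733-120984735, minus strand, the stretch crossing an exon junction: atgatcgccatgAAGatggagcacact
DBT, lipoyl lysine, chr4:117901816-117901842, plus strand, coding exon 4 of 11: gttcaaagtgatAAAgcttctgttact
BCKDHA, phosphorylated serine, chr6:49397462-49397488, plus strand, coding exon 8 of 9: atcgggcaccacAGCaccagtgatgac
Both biotin sites read ATGAAGATG, the codons of a methionine, the biotin lysine and a methionine. The sites were located by searching the translation for these residues after an alanine, so the shared residues were set in advance.

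All 10 genes were transcribed in every animal. Each was above 0.1 TPM, the study's threshold of detection, in all 6 libraries, and ranked between percentile 59.3 (HIBCH in replicate 6) and percentile 97.3 (ECHDC1 in replicate 5) of the named nuclear genes of its library. The median over the members of their mean rescaled TPM was 89.8, against 41.2 over the 8866 named nuclear genes whose mean was 10 rescaled TPM or more.

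As deposited, mean TPM ran from 22.6 ± 16.1 (SD, n = 6) for BCKDHA to 6.74 ± 3.76 (SD, n = 6) for HIBCH. Between them stood ECHDC1, PCCB at 17.3 ± 10.1, MCCC1 at 16.1 ± 8.89, IVD at 15.4 ± 11.4, DBT at 14.0 ± 7.83, PCCA at 13.5 ± 8.21, BCAT2 at 12.8 ± 9.74 and BCKDHB at 10.7 ± 5.78. Of these neighbours only BCKDHB and HIBCH kept 1 order in all 6 libraries, with a mean log2 ratio of 0.71 ± 0.30 (SD), and no other step of the order was larger than its spread between libraries. Of the 45 pairs of members, 16 had the same order in every library.

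**Figure D1:**
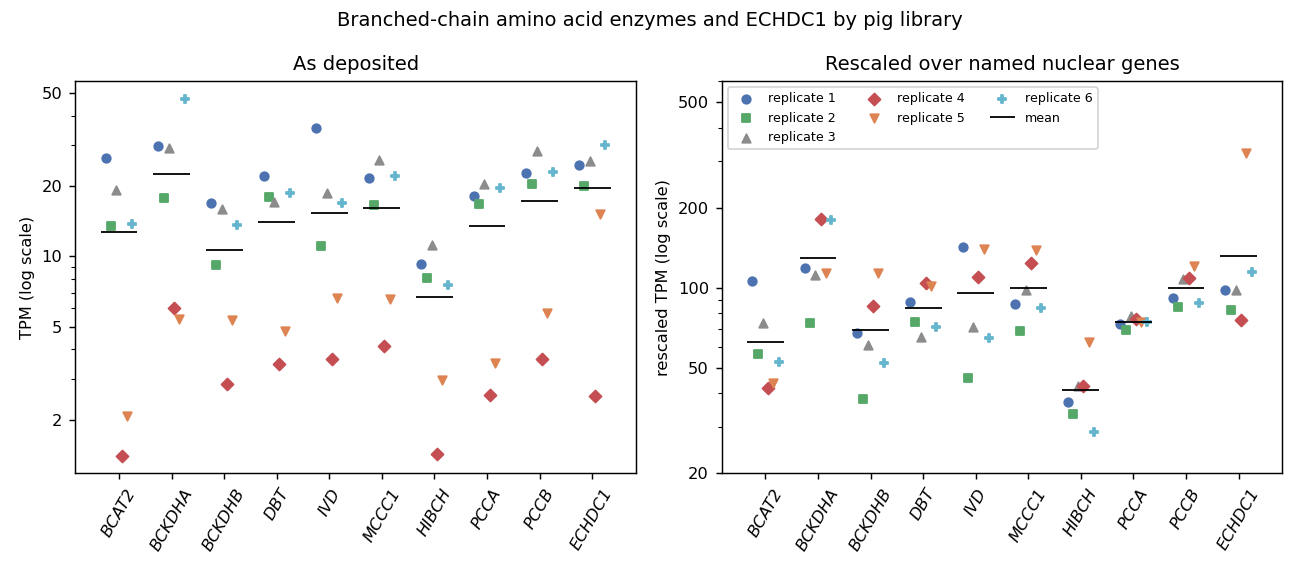
TPM of the 10 genes in each of the 6 pig libraries on a log axis, as deposited (left) and rescaled over named nuclear genes (right); each symbol is 1 library and the bar is the mean. On the left replicates 4 and 5 lie below the other libraries for every gene, and on the right they lie among or above them, except for BCAT2 and, in replicate 4, ECHDC1.

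Replicate 4 held the lowest deposited TPM of 9 members and replicate 5 that of the other, BCKDHA. After rescaling, the coefficient of variation (CV, SD over mean) was smaller for 9 of the 10, the exception being ECHDC1, and the median CV of the members went from 0.572 to 0.306. Over the 8866 genes the median CV was 0.680 as deposited and 0.282 rescaled. Without replicates 4 and 5 the members' median CV as deposited was 0.176.

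BCAT2 (chr6:54107682-54123595, minus strand, 12 exons) encodes the mitochondrial aminotransferase of the first step. Its deposited TPM had a lowest value of 1.40, a median of 13.7 and a highest value of 26.4. Rescaled, it stood at 106 in replicate 1, 56.1 in replicate 2, 73.7 in replicate 3, 42.1 in replicate 4, 43.7 in replicate 5 and 52.4 in replicate 6. It was the only member with its lowest rescaled values in replicates 4 and 5. BCAT1, the cytosolic enzyme of the same reaction, had a mean rescaled TPM of 33.9 ± 8.93 (SD, n = 6), from 20.1 in replicate 5 to 46.3 in replicate 2.

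The branched-chain keto acid dehydrogenase complex joins a decarboxylase made of BCKDHA and BCKDHB to DBT, the transacylase core, and to DLD, a dehydrogenase that it shares with other keto acid complexes. BCKDHA (chr6:49381995-49398745, plus strand, 10 exons) had 119, 73.8, 111, 181, 114 and 179 rescaled TPM in replicates 1 to 6. Its highest values were in replicates 4 and 6 and its lowest in replicate 2. BCKDHB (chr1:85755819-86017661, minus strand, 11 exons) had 67.5, 38.2, 60.9, 85.0, 113 and 51.9 rescaled TPM in the same order. DBT (chr4:117884657-117924006, plus strand, 11 exons) had 88.1, 74.3, 65.5, 104, 102 and 70.9. For BCKDHB and for DBT, replicates 4 and 5 were the highest 2 libraries. DLD, with 198 ± 18.7 rescaled TPM (SD, n = 6), was above all 3 of these subunits in every library, with a lowest value of 172.

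A ratio of subunits within a library does not change when all its genes are scaled by 1 factor. Differences between libraries that vary from gene to gene stay in it, those of replicates 4 and 5 included. BCKDHA exceeded BCKDHB in 6 of 6 libraries, with a mean log2 ratio, on TPM + 0.1, of 0.91 ± 0.57 (SD, n = 6; exact two-sided sign-flip permutation test, p = 0.03125, the smallest this test can give; 0.0521 after Benjamini-Hochberg adjustment over 5 pairs). In linear terms the ratio lay between 1.75 and 2.09 in replicates 1 to 4, at 1.00 in replicate 5 and at 3.44 in replicate 6. The partners were thus level in replicate 5, and their ratio was farthest apart in replicate 6. BCKDHA over DBT had a mean log2 ratio of 0.58 ± 0.49 (exact permutation p = 0.0625, adjusted 0.0781) and exceeded 1 in 5 of 6 libraries. BCKDHB over DBT had a mean of -0.34 ± 0.37 (exact permutation p = 0.09375, which adjustment left unchanged) and lay below 1 in 5 of 6. None of the 5 pairs passed 0.05 after adjustment, which with 6 libraries needs at least 4 of the 5 at the smallest possible p.

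The activity of the complex is set by BCKDK, the kinase that acts on the serine shown above, and PPM1K, the phosphatase that opposes it. BCKDK had 38.1, 34.6, 69.5, 16.4, 32.8 and 62.0 rescaled TPM in replicates 1 to 6. PPM1K had a lowest value of 46.6 in replicate 5 and a highest of 77.3 in replicate 4. In replicate 4 the kinase was thus at its lowest and the phosphatase at its highest, and neither value carries a test. KLF15, a transcription factor known to control amino acid breakdown genes, had 57.2 ± 18.2 rescaled TPM (SD, n = 6).

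IVD and MCCC1 belong to the leucine branch. IVD (chr1:130896488-130910582, minus strand, 12 exons) oxidises isovaleryl-CoA and had 142, 45.8, 71.2, 109, 140 and 64.5 rescaled TPM in replicates 1 to 6. Its values thus formed a lower set (replicates 2, 3 and 6) and a higher set (replicates 1, 4 and 5), and its CV of 0.428 was exceeded among the members only by that of ECHDC1. MCCC1 (chr13:120983226-121070695, minus strand, 19 exons), the biotin subunit of methylcrotonyl-CoA carboxylase, had 86.8, 69.0, 98.5, 123, 138 and 83.7, highest in replicates 5 and 4. MCCC2, its partner subunit and not a member, had 304, 253, 223, 197, 144 and 281, lowest in those same libraries.

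MCCC1 was below MCCC2 in 6 of 6 libraries, with a mean log2 ratio of -1.22 ± 0.74 (SD, n = 6; exact two-sided sign-flip permutation test, p = 0.03125, adjusted 0.0521). The linear ratio was 0.286, 0.274 and 0.299 in replicates 1, 2 and 6, 0.442 in replicate 3, 0.633 in replicate 4 and 0.963 in replicate 5. Without replicates 4 and 5 the mean log2 ratio was -1.65 ± 0.32 (SD, n = 4), where the smallest p the test can give is 0.125. Further down the leucine branch, the hydratase AUH had 220 ± 34.6 rescaled TPM (SD, n = 6), while OXCT1 and ACAT1, which handle ketone bodies, had 1480 ± 255 and 351 ± 83.6.

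**Figure D2:**
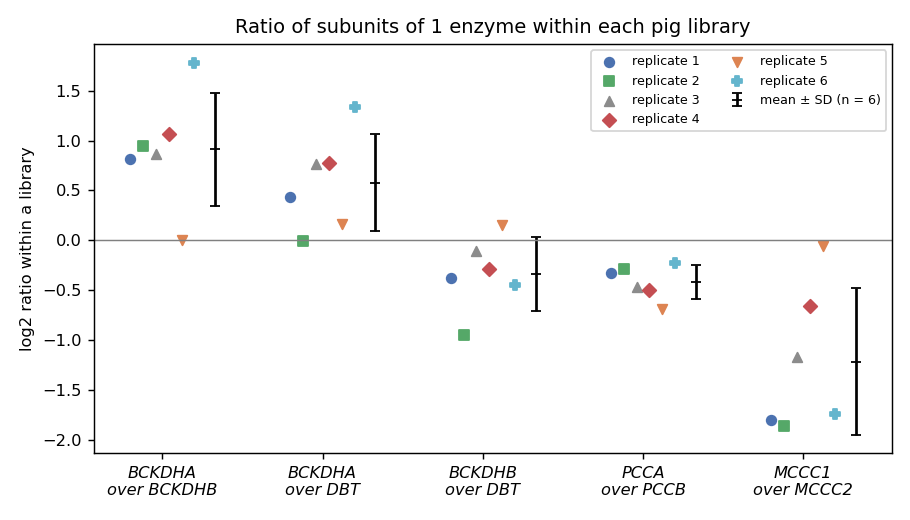
Log2 ratio of 2 subunits of 1 enzyme within each of the 6 pig libraries, on TPM + 0.1, with mean and SD beside the symbols. The BCKDHA to BCKDHB ratio runs from 0.01 in replicate 5 to 1.78 in replicate 6, the PCCA to PCCB ratio stays between -0.69 and -0.23, and the MCCC1 to MCCC2 ratio spreads from -1.87 to -0.05.

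HIBCH (chr15:94795744-94941362, minus strand, 15 exons) hydrolyses the valine intermediate hydroxyisobutyryl-CoA. It had the lowest mean of the 10, at 37.0, 33.5, 42.6, 42.6, 62.6 and 28.6 rescaled TPM in replicates 1 to 6, highest in replicate 5 and lowest in replicate 6. The enzymes on either side of it had higher levels. ECHS1, the hydratase before it, had 101 ± 50.7 rescaled TPM (SD, n = 6), and HIBADH and ALDH6A1, the dehydrogenases after it, had 221 ± 70.4 and 227 ± 52.4.

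PCCA (chr11:68920923-69286431, plus strand, 24 exons) and PCCB (chr13:77217481-77314779, plus strand, 15 exons) form propionyl-CoA carboxylase, PCCA carrying the biotin and PCCB the transfer site. PCCA had 72.8, 69.3, 78.0, 76.1, 74.2 and 74.3 rescaled TPM in replicates 1 to 6. All 6 animals thus lay within a narrow band, replicates 4 and 5 included, and the CV of 0.04 was lower in only 3 of the 8866 genes. The narrow band rests on the rescaling, and as deposited the CV of PCCA was 0.608. Against replicates 1, 2, 3 and 6, its fold in replicates 4 and 5 was 1.38 and 1.41 times the all-gene median fold. PCCB had 91.2, 84.8, 108, 109, 121 and 87.3, with a CV of 0.145. PCCA was below PCCB in 6 of 6 libraries, at 0.619 to 0.851 of its level, with a mean log2 ratio of -0.42 ± 0.17 (SD, n = 6; exact two-sided sign-flip permutation test, p = 0.03125, adjusted 0.0521).

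The mutase MMUT, which turns the product of the carboxylase into succinyl-CoA, had 146 ± 40.0 rescaled TPM (SD, n = 6) and the epimerase MCEE before it 43.8 ± 12.6. HLCS, the ligase that attaches biotin to PCCA and MCCC1, had 49.2 ± 12.9, and BTD, which recovers biotin, 24.0 ± 8.08. The cobalamin gene MMAB, at 2.76 ± 0.48, was far below the mutase that needs this cofactor. MMAA, another cobalamin gene of the list, had 32.7 ± 7.25.

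ECHDC1 (chr1:35852939-35909314, plus strand, 5 exons) encodes a cytosolic decarboxylase that destroys ethylmalonyl-CoA, a side product of acetyl-CoA carboxylase, and so keeps branched fatty acids from being made. Its deposited TPM had a lowest value of 2.52 in replicate 4, a median of 22.3 and a highest value of 30.1 in replicate 6, with 15.3 in replicate 5. Rescaled, the other 5 libraries lay between 75.3 and 114 and replicate 5 stood apart. Its rescaled CV of 0.715 was higher than that of 97.7% of the 8866 genes. Over replicates 1, 2, 3 and 6 alone its rescaled CV was 0.130, among the lower values of the 10 members. As deposited over all 6 libraries, its CV was 0.499, the lowest of the 10.

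The ratio of ECHDC1 to each of the other 9 members does not depend on the rescaling. It was highest in replicate 5 for 9 of 9. These ratios share the ECHDC1 value of replicate 5, which was known beforehand, so they are not 9 separate observations. Over PCCA, the member with the lowest rescaled CV, the ratio was 1.35, 1.20, 1.26, 0.990, 4.35 and 1.54 in replicates 1 to 6. Over BCAT2 it was 7.38 in replicate 5 against 0.930 to 2.18 in the others, and over IVD 2.31 against 0.689 to 1.81. The excess of ECHDC1 in replicate 5 thus stood against every member, but by less against IVD and BCKDHB, whose own levels were high there.

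The substrates that ECHDC1 clears arise beside the cytosolic enzymes of fat synthesis, so their levels were read with it. In replicate 5, ACLY, which makes cytosolic acetyl-CoA, had 618 rescaled TPM against 113 to 216 in the others. ACACA, the acetyl-CoA carboxylase, had 362 against 110 to 273, and FASN, the fatty acid synthase, 2329 against 714 to 1799. ME1, which supplies NADPH, had 636 against 199 to 453. All 4 were highest in replicate 5 and lowest in replicate 6. ECHDC1 over ACLY was 0.521 in replicate 5, inside the range of 0.348 to 1.01 of the other libraries, and its ratios to ACACA, FASN and ME1 were highest in replicate 6.

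**Figure D3:**
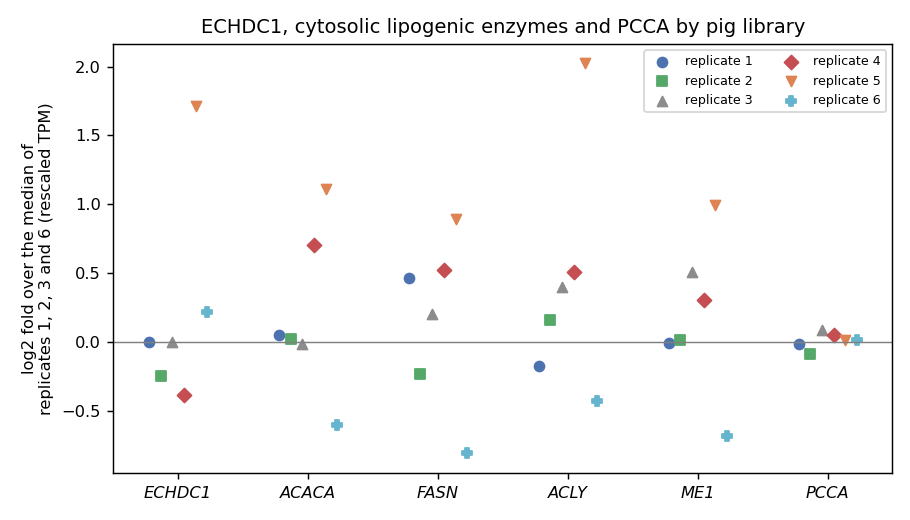
Log2 fold of the rescaled TPM over the median of replicates 1, 2, 3 and 6 for ECHDC1, 4 cytosolic enzymes of fat synthesis and PCCA, 1 symbol per pig library. Replicate 5 is the highest library for the first 5 genes, ACLY and ECHDC1 most of all, while the 6 values of PCCA lie together.

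The related genes ECHDC2 and ECHDC3 did not share this pattern. ECHDC2 had 131 rescaled TPM in replicate 5, within its range of 90.7 to 166 in the others. ECHDC3 had 43.5, its lowest value. Among other genes of metabolite repair, NAXD and D2HGDH were highest in replicate 5, at 79.2 and 39.1.

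The 5 genes whose log2 (rescaled TPM + 1) followed ECHDC1 most closely over the 6 libraries were HSD3B7 (Pearson's r = 0.985, Spearman's rho = 0.886), C5orf63 (0.979 and 0.829), NDUFA8 (0.976 and 0.943), SNCG (0.973 and 0.771) and RBBP7 (0.962 and 0.886). They were picked from 8866 genes for this likeness and share the libraries and the rescaling with ECHDC1, so the values are a description. Without replicate 5 the r of HSD3B7 was 0.938 and that of the other 4 lay between 0.612 and 0.760. Of the other members, HIBCH had the highest r with ECHDC1 over 6 libraries, 0.706, and it was -0.575 without replicate 5.

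Since replicates 4 and 5 differed from the rest in the share of named genes, each member was set against the median of replicates 1, 2, 3 and 6 on rescaled TPM. No p is given, as each is 1 library. In replicate 4, 0 of 10 members were over 2-fold higher, against 2.41% of the 8865 genes with a fold, and 0 of 10 were over 2-fold lower, against 24.1%. In replicate 5, 3 of 10 members were over 2-fold higher, against 3.72%, and 0 of 10 over 2-fold lower, against 28.2%. The 3 were ECHDC1 at 3.28-fold, whose value was known when the list was drawn up, IVD at 2.06-fold and BCKDHB at 2.01-fold. HIBCH came next at 1.77-fold. IVD and BCKDHB lay near the line, and without replicate 2 or without replicate 6 the count was 1.

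The members' median fold was 1.33 in replicate 4 and 1.51 in replicate 5, while the median over all genes was 0.750 and 0.718. In each of the 2 libraries 9 of 10 members lay above the all-gene median, the exception being BCAT2 at 0.648-fold and 0.673-fold. As deposited the members' median fold was 0.176 and 0.281 and the all-gene median 0.0986 and 0.133, so both the fold and its direction rest on the rescaling. As deposited, 9 of 10 members again stood above the all-gene median. This count could hardly change, since the deposited and rescaled values differ by 1 factor per library. After median-centring it was 8 of 10. ECHDC1 in replicate 5 was 0.607-fold of the same median as deposited and 4.55 times the all-gene median.

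**Figure D4:**
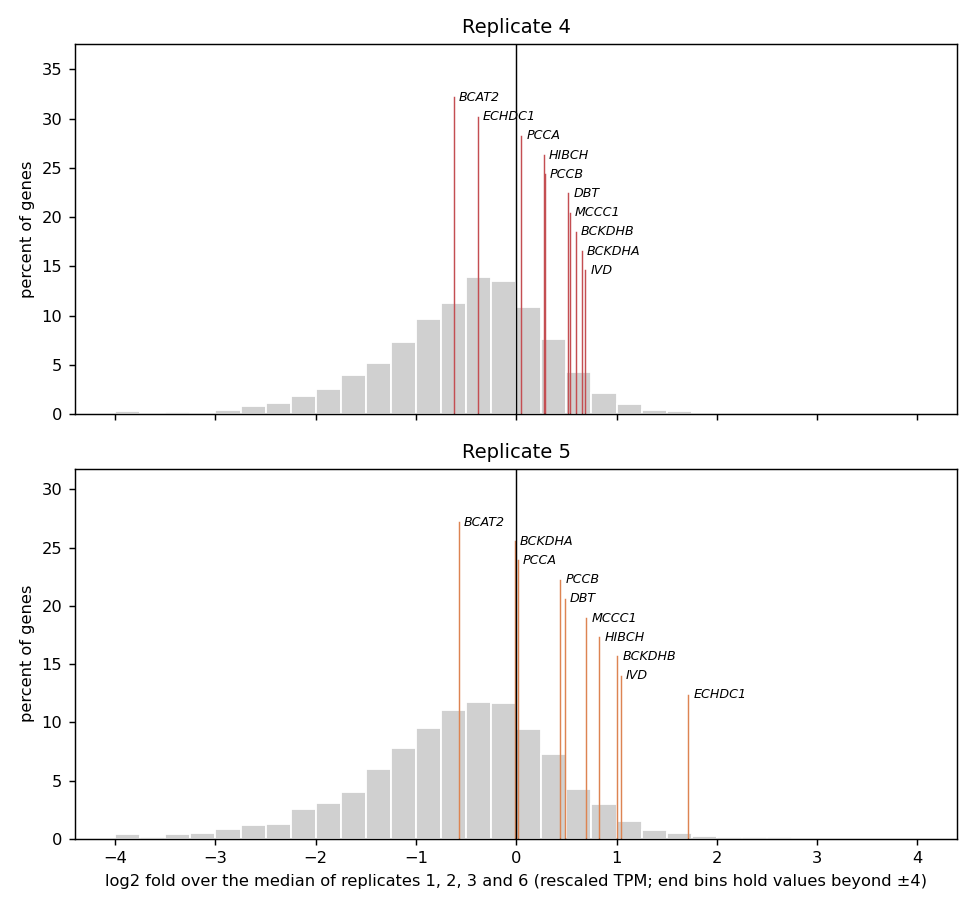
Distribution of log2 fold over the median of replicates 1, 2, 3 and 6 (rescaled TPM) for the 8865 genes (grey bars, percent of genes), with the 10 members as lines whose height has no meaning, in replicate 4 (top) and replicate 5 (bottom). Most members lie to the right of the peak of all genes, BCAT2 does not, and ECHDC1 moves from near the peak in replicate 4 to the far right in replicate 5.

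Replicates 4 and 5 were both above all 4 other libraries for 4 of 10 members (BCKDHB, DBT, MCCC1 and PCCB), against 12.3% of the 8866 genes, and both below for 1 of 10 (BCAT2), against 48.6%. With median-centred values the first count was 0 and the second 2, and with quantile normalization they were 6 and 0, so these counts depend on the scaling.

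The other genes of the pathway, 31 of 32 of them in the table (ACAD8 is not among the named IDs), did not move as 1 block. Among the 27 that reached a mean of 10 rescaled TPM, in replicate 4 only ECHS1 (2.26-fold) was over 2-fold higher, and BCKDK (0.327-fold), the mitochondrial carrier of branched-chain amino acids SLC25A44 (0.491-fold) and BTD (0.485-fold) were over 2-fold lower. In replicate 5, ECHS1 (2.60-fold) was higher and the plasma membrane carrier SLC43A2 (0.393-fold) was lower. The median fold of the 27 was 0.966 and 0.850, below that of the members in both libraries and above that of all genes.

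The sister complexes that oxidise pyruvate and oxoglutarate gave an uneven picture. PDHB had 171 and 293 rescaled TPM in replicates 4 and 5 against 35.8 to 56.7 in the others, a fold of 3.53 and 6.04, and PDHA1 had 1224 and 784 against 446 to 617. DLAT, PDHX, OGDH and DLST stayed between 0.662-fold and 1.47-fold. The mitochondrial fatty acid oxidation list (15 of 16 measured, led by HADH, ACADM and ETFDH) had a median fold of 1.09 and 1.40. The TCA cycle list (17 of 17, led by CS, SUCLG1 and SDHA) had 0.872 and 1.08.

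Markers of other cell types differed in the same libraries. Of the liver list, 11 of 12 genes were measured, with a summed rescaled TPM of 1537 in replicate 4 and 1784 in replicate 5 against 216 to 1354 in the others. In each of the 2 libraries, 6 of the 8 liver genes with a mean of 10 rescaled TPM or more were over 2-fold higher. The shares over all genes with a fold were 2.41% in replicate 4 and 3.72% in replicate 5. None of the 8 was over 2-fold lower, against 24.1% and 28.2%, and their median fold was 3.93 and 4.28. ALB, the main liver transcript, had 772 and 1091 against 47.6 to 794, and SERPINA1 was listed at 0 in all but replicate 5, where it had 0.358. IVD, PCCA, PCCB and other members are also expressed in liver. Replicate 2, with 794 rescaled TPM of ALB, had the lowest rescaled value of 6 of the 10 members. The 10 stromal markers summed to 16646 and 27687 against 25767 to 44948, and the 10 macrophage markers to 632 and 447 against 738 to 988. The 7 endothelial markers measured summed to 766 and 933 against 1237 to 1543, the 10 lymphoid markers to 72.9 and 59.6 against 85.4 to 160, and the 10 kidney markers to 2.45 and 2.78 against 6.57 to 35.1, with UMOD listed at 0 in both. The part of these cell types in the members' values was not tested.

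Upstream sequences were read to see what the members share before the gene start. The 250 bases before the RefSeq start are shown for the members with the widest and narrowest spread of rescaled TPM, ECHDC1 and PCCA. Matches to GGGCGG (the GC box) and CCAAT on either strand are in capitals.
ECHDC1, chr1:35852689-35852938, plus strand: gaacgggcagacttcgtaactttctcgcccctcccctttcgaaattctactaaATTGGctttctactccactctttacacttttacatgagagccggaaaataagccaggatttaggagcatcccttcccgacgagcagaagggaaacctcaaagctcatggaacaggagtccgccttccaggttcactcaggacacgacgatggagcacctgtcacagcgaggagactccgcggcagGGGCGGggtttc
PCCA, chr11:68920673-68920922, plus strand: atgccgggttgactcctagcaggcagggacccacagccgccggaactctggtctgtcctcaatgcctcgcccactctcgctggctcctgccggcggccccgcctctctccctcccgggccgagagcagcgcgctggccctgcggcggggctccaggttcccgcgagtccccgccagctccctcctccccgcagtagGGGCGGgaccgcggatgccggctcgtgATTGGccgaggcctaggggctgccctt
Both hold 1 GC box and 1 CCAAT match. They differ in base composition, with a GC content of 53.2% for ECHDC1 and 73.2% for PCCA, and 14 against 24 CpG.

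Over the 10 members, GGGCGG was found before 7, against 45.9% of 19556 RefSeq gene starts, and CCAAT before 5, against 31.9%. CACGTG was found before 1 (BCKDHA), against 6.39%, and GCATGCG before 1 (BCKDHB), against 2.93%. TATAAA was found before 0 of 10, against 9.77%, and AGGTCA before 0 of 10, against 12.2%. Both strands were searched, and a match or its lack describes only the letters in this window. The GC content of the 10 windows ran from 44.8% to 73.2% with a median of 58.4%, and the median over all starts was 57.6%.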

How the data were processed

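RNA was extracted from backfat with the RNeasy kit, depleted of ribosomal RNA with Ribo-Zero, made into TruSeq stranded libraries and sequenced on an Illumina HiSeq platform, per the labels. The authors computed TPM per gene with Kallisto 0.43.0 and deposited 1 table per species. The Ensembl release behind the tables is not named in the labels or the study's methods. TPM hold no counts, so the depth and the counting error are unknown, and only the spread of the 6 libraries gives the precision. The rat table was not used.

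IDs were named from a pig name table (14857 of 25880). Calculations used Python 3.11.15, numpy 2.4.6, pandas 2.3.3, scipy 1.17.1, pysam 0.24.0 and Biopython 1.88. Rescaling set the named nuclear genes of a library to a sum of 1000000. Log2 ratios used a pseudocount of 0.1. Subunit ratios were tested with exact sign flips over libraries. Folds used genes whose mean was 10 rescaled TPM or more and a call at 2-fold, and the fold calls, the non-overlap calls and the sign-flip p were tested on simulated data. Coordinates are 1-based RefSeq positions on Sscrofa11.1, the build the study names, matched on the symbol, and exons were counted in the longest transcript of RefSeq. For IVD it holds no bases outside its coding sequence.

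Named genes were the members, the pathway, fat synthesis, repair and sister complex lists, the 3 genes of highest mean of the other lists, and the 5 genes most like ECHDC1. Some genes of these lists are not reported here. Further genes (SERPINA1, LALBA) were named after their values were seen. The members and lists were chosen with earlier results of these data known. Alternatives were 4 other scalings, pseudocounts of 1 and 0.01, a mean of at least 1, a fold of 1.5 and leaving out libraries.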

Additional observations from a re-analysis of the deposited data

Results flagged for a closer look

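ECHDC1 in replicate 5, at 322.39 rescaled TPM, lay far from the other 5 libraries. Its gap to the nearest of them was 0.843 of the whole range, past the 95% critical value of Dixon's test for 6 samples. It was the only 1 of 25 sets of 6 values examined (each member as deposited and rescaled, and the 5 subunit ratios) to do so. Chance marks about 1 in 20 independent sets, but these sets reuse the same values and are not independent. The ECHDC1 value was also known when the list of members was drawn up, so the flag is a description only. ACLY and PDHB, which are not members, were also highest in this library.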

How the results depend on the processing

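No paired analysis was possible because pig and rat replicates share only a number and no test was made between them. The direction of all 5 subunit ratios was the same under every scaling and pseudocount and without any library. Most of this was set in advance, since the scalings and pseudocounts keep the order of a pair within a library. BCKDHA over BCKDHB, PCCA over PCCB and MCCC1 over MCCC2 had 1 order in all 6 libraries, so their direction could not turn. Only BCKDHA over DBT and BCKDHB over DBT could have turned. With 5 libraries the smallest exact p is 0.0625 and with 4 it is 0.125, so p passed 0.05 in none of these. Leaving out 1 library gave mean log2 ratios of 0.74 to 1.09 for BCKDHA over BCKDHB, -0.45 to -0.36 for PCCA over PCCB and -1.45 to -1.09 for MCCC1 over MCCC2. Without replicates 4 and 5 they were 1.10, -0.33 and -1.65. The median member level was 14.7 TPM as deposited and 89.8 rescaled. The members' median CV was 0.306 rescaled, 0.294 median-centred, 0.364 quantile-normalized, 0.176 without replicates 4 and 5, and 0.416 to 0.657 leaving out 1 library.

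Members past 2-fold in replicate 4 numbered 0 rescaled, 10 (all lower) as deposited and 10 (all lower) with mitochondrially encoded and ribosomal protein genes removed, and 4 at a fold of 1.5. In replicate 5 they numbered 3 rescaled, 9 (all lower) in each of those scalings, 1 median-centred, 5 quantile-normalized, 5 at a fold of 1.5, and 1 to 3 leaving out 1 library. ECHDC1 in replicate 5 was 3.28-fold rescaled, 2.39-fold median-centred and 3.37-fold quantile-normalized, but 0.607-fold as deposited and 0.505-fold with those genes removed. This fold and the counts of members above or below in both replicates 4 and 5 were chosen after seeing the data. Those counts were 4 above and 1 below rescaled, 0 and 10 as deposited and with those genes removed, 0 and 2 median-centred, and 6 and 0 quantile-normalized. Without read counts, no limit from depth can be given.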
